A study of Homo sapiens with 6 samples.

Results

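Antisense long non-coding RNA (lncRNA) genes were selected by name, as the genes of the count table whose symbol consists of letters and digits followed by "-AS1", the suffix that gene nomenclature gives to a non-coding gene transcribed from the strand opposite to a named gene. Of the 19469 genes in the table, 610 met this rule, which uses names only. The rule and its lead gene, CALML3-AS1, were chosen with earlier results of these data known. Current gene models (GENCODE release 44) class 605 of them as lncRNA and 5 as transcribed pseudogenes. For 566 of the 610 the gene named before the hyphen, here called the sense gene, was also in the table. These 566 rows point to 563 sense genes, since 3 symbols each occur on 2 rows, and 44 antisense genes had no sense gene in the table.

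The cells were L3.6pl, a human pancreatic cancer line derived from a metastatic lymph node and described as adenosquamous carcinoma. The line was sorted by flow cytometry for high or low amounts of the adhesion molecule L1CAM on the cell surface. The 3 libraries of the L1CAM-positive population are called L1high and the 3 of the L1CAM-negative population L1low. The labels name no treatment and no engineered allele, so the sort gate is the only difference they give between the groups, and all libraries come from 1 cell line. The labels do not say whether replicates were separate cultures or separate sorts, so the p-values measure the spread between these libraries, which may be technical. The study itself set the 3 L1low libraries against L1high replicates 1 and 2 and does not explain why the remaining L1high library was not used. The same 5 libraries are compared here, and antisense genes whose call changes with all 6 are named. All log2 differences below are L1low minus L1high, so that a positive value is higher in L1low.

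An antisense lncRNA gene can lie inside its sense gene, can meet it tail to tail with overlapping 3′ ends, or can start near the same promoter and run away from it, head to head. Antisense transcription is known to act in several ways, among them pairing with the sense RNA, interference between polymerases running towards each other, and recruitment of chromatin modifiers, while many antisense RNAs have no described function. Because both genes use the same stretch of DNA, the strand of each read decides to which of them it belongs. The libraries were made with a kit that keeps the strand, but whether the counting used the strand, and how it treated a read that lies on 2 genes, is not given in the sources used here. A read on bases shared by both genes may thus have been counted for either or both. Most antisense values below are given beside their sense gene, and the shared bases for only some of the pairs.

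CALML3-AS1, the lead gene, had the largest difference of the 610. It is a gene of 5 exons on the minus strand of chromosome 10 (ENSG00000205488, chr10:5510036-5526246, GRCh38) and overlaps the start of CALML3 head to head. CALML3 encodes calmodulin-like protein 3, a calcium-binding protein of stratified epithelia, and is a gene of a single exon on the plus strand (ENSG00000178363, chr10:5524961-5526771). In L1high replicates 1, 2 and 3 CALML3-AS1 stood at 2.03, 2.34 and 2.86 CPM (the read count scaled to a common library size), and in L1low replicates 1, 2 and 3 at 8.97, 10.2 and 10.4 CPM. All 3 L1low libraries were above all 3 L1high libraries, and the gap between the groups was wider than the range within either. The log2 difference was 2.18 ± 0.18 (SE, n = 3 and 2) with an adjusted p of 1.2e-05 (edgeR quasi-likelihood test, Benjamini-Hochberg over all genes), and 2.05 over all 6 libraries. The counts behind it were 43, 48 and 47 reads in L1high and 163, 183 and 185 in L1low.

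CALML3 itself moved the same way. Its level was 10.6, 8.13 and 9.08 CPM in L1high and 29.2, 34.5 and 32.5 CPM in L1low. The groups did not overlap, and the log2 difference was 1.78 ± 0.14 (SE) with an adjusted p of 7.0e-06. The antisense difference minus the sense difference was 0.40 ± 0.23 (SE, log2), and the ratio of CALML3-AS1 to CALML3 overlapped between the groups, so a change of the antisense gene beyond that of its sense gene was not detected. Per kilobase of exon CALML3-AS1 averaged 0.667 CPM and CALML3 averaged 11.4 CPM.

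**Figure D1:**
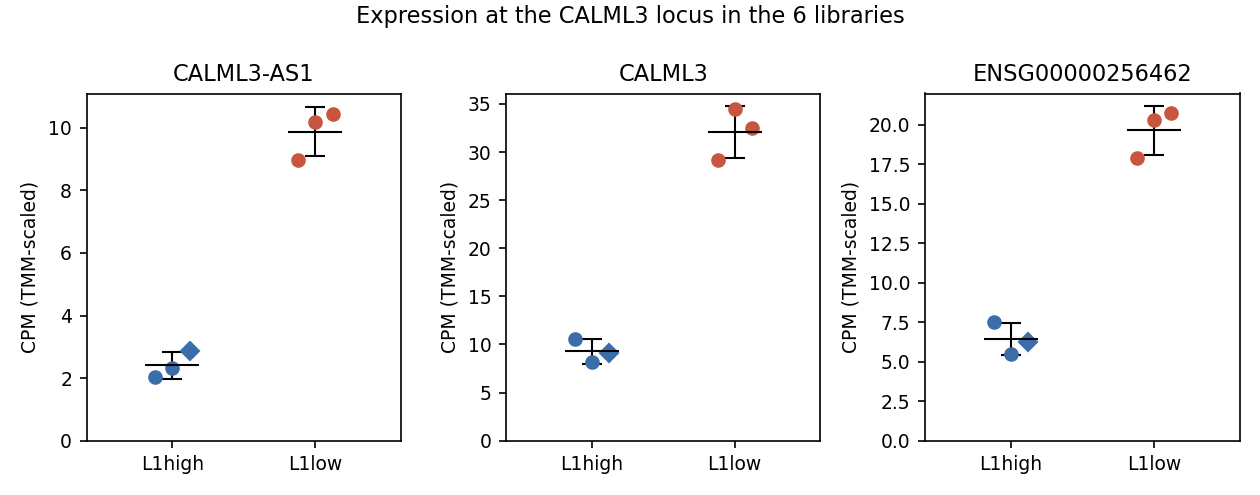
CPM of CALML3-AS1 and CALML3 in each of the 6 libraries, with 1 point per library, a diamond for L1high replicate 3 and a horizontal bar with error bar for the mean ± SD of the 3 libraries of a group. CALML3-AS1 runs from 2.03 to 2.86 CPM in L1high and from 8.97 to 10.4 CPM in L1low, and CALML3 from 8.13 to 10.6 CPM and from 29.2 to 34.5 CPM.

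The exons of both genes share 354 bases, which is 3.85% of the 9205 exon bases of CALML3-AS1. If the reads of CALML3 were spread evenly over its exon of 1811 bases, 43.98, 32.6 and 29.1 reads would fall on the shared bases in the L1high libraries and 104, 121 and 113 in the L1low libraries. These numbers equal 102%, 68.0% and 62.0% of the CALML3-AS1 count in L1high and 63.6%, 66.1% and 60.9% in L1low. How CALML3 reads were in fact spread over the exon was not measured. A second minus-strand gene, ENSG00000256462, has 595 exon bases, all of which (100%) lie under the CALML3 exon. It counted 160, 113 and 103 reads in L1high and 325, 364 and 368 in L1low, a log2 difference of 1.597. Its reads cannot be told apart from those of CALML3 without the strand.

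**Figure D2:**
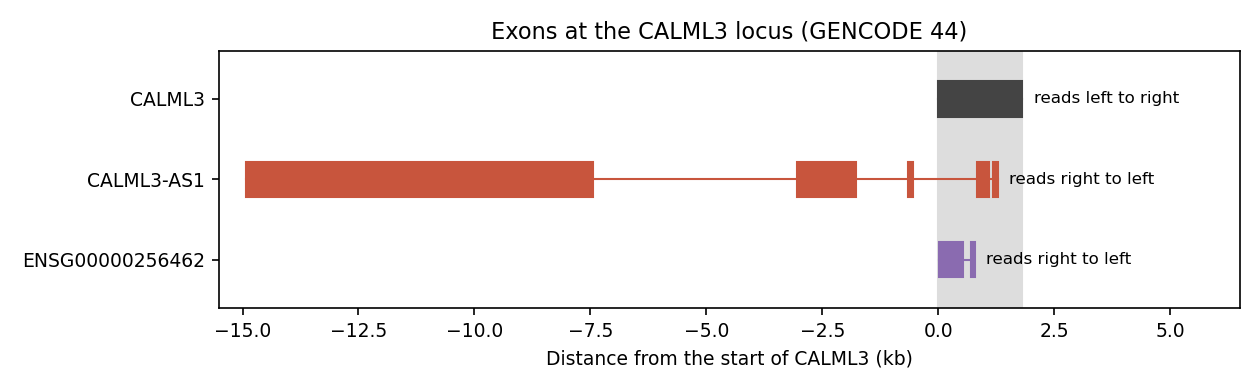
Map of the CALML3 locus, with position in kilobases from the CALML3 start on the horizontal axis, exons as boxes and introns as lines for CALML3 (plus strand), CALML3-AS1 and ENSG00000256462 (both minus strand). CALML3-AS1 overlaps CALML3 over 354 exon bases in its exons nearest its own start, and ENSG00000256462 lies wholly under the CALML3 exon.

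Of the 7 genes in the table that start within 250 kb of the CALML3-AS1 start, 4 passed the test, all of them higher in L1low, against 4.41% of all genes. Of these, 3 are the overlapping genes of the CALML3 locus, which can share reads, and the other was NET1, a guanine nucleotide exchange factor of small GTPases, at 162, 167 and 159 CPM in L1high and 262, 268 and 274 CPM in L1low. Its log2 difference of 0.71 was smaller than that of CALML3. TASOR2 (-0.12) and ASB13 (0.0047) stood near no difference, and the lncRNA LASTR had a log2 difference of 0.72 with an adjusted p of 0.11.

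The other members of the calmodulin family did not follow CALML3. Of 8 listed genes 6 were in the table. CALML3 and MYO10, an unconventional myosin that binds CALML3, were higher in L1low, MYO10 by 0.35 (log2). CALM2, a gene of calmodulin itself, was lower (log2 difference -0.46). Over all 6 libraries its difference was -0.39 and it was not called (adjusted p = 0.056, edgeR quasi-likelihood test). Neither CALM2 nor MYO10 passed under every alternative setting.

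The 250 bases before the start were read from RefSeq (GRCh38.p14), which had a window for 31 of the 49 called antisense genes and their sense genes looked up, among them 12 of the 25 antisense genes. The windows of CALML3, THBS1, VIM and VIM-AS1 are shown as examples picked from the 18 pairs with both genes called. VIM and VIM-AS1 let an antisense start be set beside the sense start of the same locus. Other windows, among them those of PDE7B and PDE7B-AS1, are not shown. For VIM-AS1, RefSeq gives a second start, which lies in untranslated sequence of VIM and is not shown. Capitals mark matches on either strand, and no match overlaps another. The AP-1 site was searched as TGANTCA and the TEAD site as GGAATG. The TATA box was searched as TATAAA and the CCAAT box by the letters of its name. Each sequence reads 5′ to 3′ on the strand of its gene.
CALML3, chr10:5524711-5524960, plus strand: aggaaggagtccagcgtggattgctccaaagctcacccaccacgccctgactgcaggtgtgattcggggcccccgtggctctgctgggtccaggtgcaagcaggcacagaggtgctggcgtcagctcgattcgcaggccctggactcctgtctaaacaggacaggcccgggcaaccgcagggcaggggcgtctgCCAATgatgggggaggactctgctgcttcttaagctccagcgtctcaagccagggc
THBS1, chr15:39580829-39581078, plus strand: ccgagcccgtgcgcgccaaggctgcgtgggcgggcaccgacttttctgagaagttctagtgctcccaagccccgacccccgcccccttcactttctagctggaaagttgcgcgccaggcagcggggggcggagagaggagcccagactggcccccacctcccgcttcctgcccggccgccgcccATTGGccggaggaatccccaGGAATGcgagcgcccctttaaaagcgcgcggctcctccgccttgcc
VIM, chr10:17227991-17228240, plus strand: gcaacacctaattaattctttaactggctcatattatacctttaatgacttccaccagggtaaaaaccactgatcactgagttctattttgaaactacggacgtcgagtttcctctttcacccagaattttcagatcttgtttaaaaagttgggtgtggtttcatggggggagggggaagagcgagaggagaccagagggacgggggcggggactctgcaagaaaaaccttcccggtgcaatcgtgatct
VIM-AS1, chr10:17226899-17227148, minus strand: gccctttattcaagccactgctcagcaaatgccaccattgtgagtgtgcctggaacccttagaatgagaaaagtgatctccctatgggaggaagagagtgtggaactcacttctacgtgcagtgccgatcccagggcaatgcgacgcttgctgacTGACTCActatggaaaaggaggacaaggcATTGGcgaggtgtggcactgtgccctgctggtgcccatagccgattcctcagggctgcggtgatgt

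The CALML3 window holds a single CCAAT box, and the THBS1 window a CCAAT box and a TEAD site. The shown VIM-AS1 window holds an AP-1 site and a CCAAT box, whereas the VIM window holds none of the 4 motifs. The VIM-AS1 window that is not shown holds none of them either. The shown VIM-AS1 window lies upstream of the whole VIM window, so its start runs away from VIM without overlapping it. The overlap of this pair given below is that of the GENCODE models, and which start the cells use was not measured. Over all 35116 promoter windows of RefSeq, which also include the first bases of the transcript, a CCAAT box occurred in 34.6%, a TEAD site in 14%, a TATA box in 11.5% and an AP-1 site in 7.71%, so each of these matches is common by sequence alone. No sequence is shown for the CALML3-AS1 start, which lies in annotated untranslated sequence of CALML3.

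Across the 610 antisense genes few differed. The test called 25 (4.10%), 18 higher and 7 lower in L1low, against 7.57% of all genes tested (4.41% higher and 3.15% lower). Among the 2036 other lncRNA genes the share was 3.98%, and among the 5164 genes of like level, those between the quartiles of the antisense levels, it was 4.14%, so the share of antisense genes called was near that of other genes with few reads. Without adjustment, 92 antisense genes had a p under 0.05 (15.1%) against 23.3% of all genes. CPM did not overlap between the 3 L1low and the 3 L1high libraries for 130 antisense genes (21.3%) against 28.8% of all genes. The median log2 difference was 0.056, against 0.0016 over all genes, and the median SE 0.22 against 0.13, since antisense genes had fewer reads. Log2 differences ran from -1.11 for BTG3-AS1, which did not pass the test (adjusted p = 0.099), to 2.18 for CALML3-AS1, and 519 genes stayed within 0.5 of 0.

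Over all 6 libraries 28 antisense genes were called, 18 higher and 10 lower (7.95% of all genes, 4.58% higher and 3.37% lower), and 22 were called in both comparisons. MAL2-AS1, NGFR-AS1 and FAM181A-AS1 were called with 5 libraries only. PDK1-AS1, ADAMTSL4-AS1, SPINT1-AS1, TMPO-AS1, IPO9-AS1 and B4GALT1-AS1 were called with all 6 only. For 24 of the 25 genes called with 5 libraries, all 3 L1low libraries were on one side of all 3 L1high libraries, the exception being MAL2-AS1. The calls were made on 5 of these 6 libraries, so this separation describes the called genes and is no separate support for them. The number of calls depended on single libraries. With all 6 libraries but L1high replicate 1 there were 6 higher and 4 lower antisense genes (3.46% of all genes called), and with all but L1low replicate 2 there were 7 and 4 (3.22% of all genes). With all but L1high replicate 2 there were 13 and 13 (6.56% of all genes), and with all but L1low replicate 3 there were 11 and 8 (6.04% of all genes). With all but L1low replicate 1 there were 14 and 9 (6.06% of all genes). CALML3-AS1, THBS1-AS1, IGFL2-AS1, C2CD4D-AS1, PYCARD-AS1 and PXN-AS1 were among the 7 genes called under every alternative run. EGFR-AS1 lost its call without L1high replicate 1 or L1low replicate 2, with an adjusted p of at most 0.084. VIM-AS1 and ITGB8-AS1 lost theirs without L1low replicate 2 (at most 0.070 and 0.054), and YEATS2-AS1 and PDE7B-AS1 without L1high replicate 1 (at most 0.068 and 0.062). LOXL2-AS1 lost its call without L1high replicate 1 or L1low replicate 3 (at most 0.080). The calls of SLC9A3-AS1, ARAP1-AS1, TP73-AS1, RAB11B-AS1, PHLDA1-AS1, MAL2-AS1, ADIRF-AS1, NGFR-AS1, XPC-AS1 and FAM181A-AS1 each depended on at least 3 of the libraries, and NAV2-AS1 lost its call without L1low replicate 2 (0.055). XPC-AS1 was also not called with DESeq2, with scaling by library size only and with a replicate block on 5 libraries, FAM181A-AS1 with scaling by library size only, and NGFR-AS1 with the block on all 6.

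Of the 25 called genes 24 had a sense gene in the table, and in all 24 the log2 difference of the sense gene had the same sign. In 18 of these pairs the sense gene was called too. The remaining 6 sense genes, among them C2CD4D, SLC9A3, RAB11B, PHLDA1 and FAM181A, did not pass the test. Most of the pairs are described below by the role of the sense gene.

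**Figure D3:**
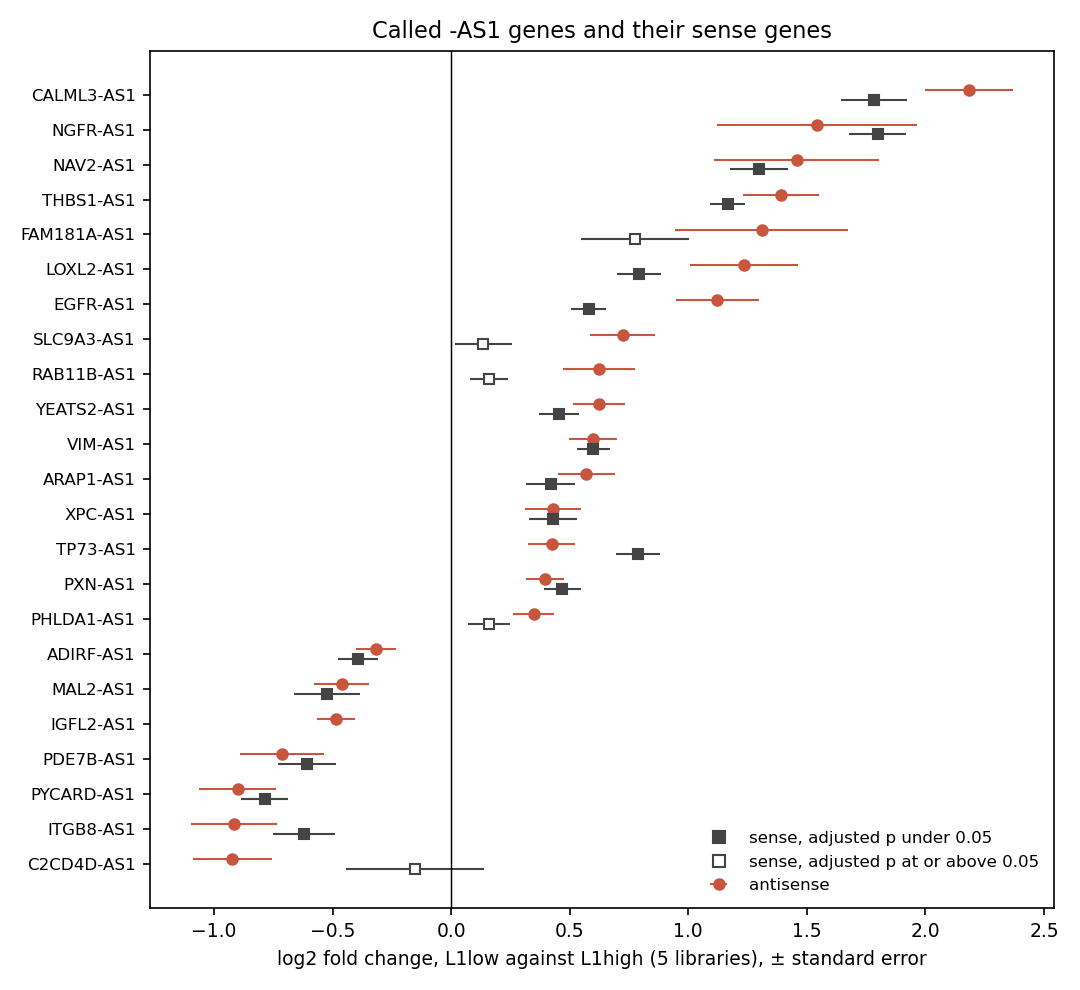
Log2 difference (L1low minus L1high, 5 libraries) of 23 called antisense genes and of their sense genes, with error bars of 1 SE and open squares for sense genes that did not pass the test. In all 22 pairs shown both points lie on the same side of 0, and the distance from 0 is largest for CALML3-AS1 at 2.18.

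Several sense genes encode proteins of the matrix, of adhesion and of the cytoskeleton. THBS1-AS1 (chr15:39588357-39588882, minus strand) is a gene of 526 bases inside THBS1, the gene of the matricellular protein thrombospondin 1, and 78.1% of its bases lie on THBS1 exons. Its level was 6.08, 4.53 and 7.13 CPM in L1high and 13.7, 14.8 and 13.0 CPM in L1low, and the groups did not overlap. THBS1 stood at 173, 166 and 174 CPM in L1high and at 381, 384 and 368 CPM in L1low. The log2 differences were 1.39 ± 0.16 for the antisense gene (adjusted p = 0.00019) and 1.17 ± 0.07 for the sense gene (adjusted p = 3.7e-06). Even coverage of THBS1 would by itself give 125% of the THBS1-AS1 count.

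LOXL2-AS1 lies within LOXL2, which encodes a lysyl oxidase that cross-links collagen. LOXL2-AS1 rose from 1.98, 2.39 and 3.29 CPM to 4.68, 4.51 and 6.16 CPM, a log2 difference of 1.24, and LOXL2 differed by 0.79. Only 3.71% of the exon bases of LOXL2-AS1 lie on LOXL2 exons, where even coverage would give 34.7% of its count. ITGB8-AS1, which shares a start region with ITGB8, the gene of the integrin β8 chain, was lower in L1low. It went from 7.02, 8.71 and 6.70 CPM to 4.35, 3.57 and 4.52 CPM, a log2 difference of -0.91. ITGB8 differed by -0.62, and with 14% of bases shared even coverage would give 13.2% of the antisense count.

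Among cytoskeletal genes, VIM-AS1 and VIM, the gene of the intermediate filament protein vimentin, overlap head to head. Their starts in the GENCODE models lie 1777 bases apart. VIM-AS1 stood at 66.2, 58.4 and 73.0 CPM in L1high and 83.6, 103 and 94.5 CPM in L1low, and VIM at 361, 377 and 373 CPM and at 553, 547 and 565 CPM. The log2 differences were nearly equal, 0.60 ± 0.10 and 0.60 ± 0.07. PXN-AS1 meets PXN, the gene of the focal adhesion adaptor paxillin, tail to tail, and they rose by 0.40 and 0.47 (log2). In these pairs 30.9% and 37.8% of the antisense exon bases lie on sense exons.

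A further group of sense genes encodes receptors and signalling proteins. EGFR-AS1 lies within EGFR, the gene of the epidermal growth factor receptor. It stood at 5.23, 3.70 and 7.13 CPM in L1high and at 9.47, 9.75 and 9.83 CPM in L1low. EGFR stood at 294, 305 and 285 CPM in L1high and at 467, 444 and 425 CPM in L1low. The log2 differences were 1.12 ± 0.18 and 0.58 ± 0.08. The lowest EGFR-AS1 value is that of L1high replicate 2, and over all 6 libraries the antisense difference was 0.87 (adjusted p = 0.018). NGFR-AS1 and NGFR, the gene of the low-affinity nerve growth factor receptor and a marker of basal cells, meet tail to tail and differed by 1.54 and 1.80 (log2). NGFR-AS1 rests on a mean of only 19.8 reads per library, and its adjusted p was 0.043 with 5 libraries and 0.13 with all 6.

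ARAP1-AS1 lies within ARAP1, which encodes a GTPase-activating protein, and 99.2% of its bases lie on ARAP1 exons. The log2 differences of this pair were 0.57 and 0.42. PDE7B-AS1 was lower together with PDE7B, a phosphodiesterase gene of cyclic AMP breakdown, by -0.71 and -0.61 (log2). RAB11B-AS1 differed from this pattern. It starts 704 bases from RAB11B, the gene of a GTPase of recycling endosomes, and stood at 7.54, 8.32 and 9.02 CPM in L1high and 11.1, 13.9 and 11.5 CPM in L1low. RAB11B stood at 71.7, 71.9 and 69.6 CPM and at 77.9, 82.0 and 79.4 CPM, with a log2 difference of 0.16 and an adjusted p of 0.24. The ratio of RAB11B-AS1 to RAB11B did not overlap between the groups, and the antisense difference exceeded the sense difference by 0.46 ± 0.17 (log2, SE).

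Among sense genes of transcription, chromatin and DNA repair, TP73-AS1 changed less than its sense gene. TP73, a transcription factor gene of the p53 family, stood at 37.7, 33.3 and 40.5 CPM in L1high and at 60.8, 62.0 and 59.97 CPM in L1low. TP73-AS1 stood at 32.0, 28.0 and 34.1 CPM and at 39.9, 39.9 and 40.4 CPM. The log2 differences were 0.79 and 0.43, which left the antisense gene behind by -0.36 ± 0.14 (SE), and the ratio of the pair did not overlap between groups. TP73-AS1 meets TP73 tail to tail and shares 6.53% of its exon bases with it. YEATS2-AS1 and YEATS2, which encodes a histone acylation reader, rose by 0.62 and 0.45 (log2). XPC-AS1 and XPC, a gene of nucleotide excision repair, rose by 0.43 and 0.43 (log2).

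PYCARD-AS1 and PYCARD, the gene of the inflammasome adaptor ASC, were lower in L1low. PYCARD-AS1 stood at 71.5, 55.6 and 84.2 CPM in L1high and at 24.8, 38.8 and 38.1 CPM in L1low, and the groups did not overlap. The log2 differences were -0.90 ± 0.16 and -0.79 ± 0.10. Of the antisense exon bases 90.5% lie on PYCARD exons, and even coverage would give 183% of the antisense count. MAL2-AS1 with MAL2, a gene of apical membrane transport, fell by 0.46 and 0.52 on the log2 scale, with neither called over all 6 libraries. ADIRF-AS1 with ADIRF, a regulator gene of fat cell development, fell by 0.32 and 0.39 on the log2 scale. The ratio of this pair also did not overlap between the groups, the antisense gene having fallen less. ADIRF-AS1, at 331, 293 and 319 CPM in L1high and 237, 240 and 270 CPM in L1low, had the highest CPM of the called genes.

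NAV2-AS1 moved with its sense gene, and the remaining called genes had a sense gene that did not pass the test or that was not in the table. NAV2-AS1, whose exon bases all lie on exons of NAV2, a gene of neurite outgrowth, differed by 1.46 beside 1.30 for NAV2 (log2), on a mean of 30 reads per library. SLC9A3-AS1 lies within SLC9A3, the gene of a sodium-hydrogen exchanger, and stood at 6.88, 6.67 and 8.95 CPM in L1high and at 11.1, 11.3 and 11.01 CPM in L1low. SLC9A3 stood at 13.5, 13.4 and 15.7 CPM and at 13.7, 15.0 and 15.5 CPM, and was not called (log2 difference 0.14, adjusted p = 0.54). Here too the ratio did not overlap between groups, and the antisense difference exceeded the sense difference by 0.59 ± 0.18 (log2, SE). PHLDA1-AS1 and FAM181A-AS1 had log2 differences of 0.35 and 1.31, beside 0.16 and 0.78 for PHLDA1 and FAM181A, which did not pass. IGFL2-AS1, which had no sense gene in the table, fell from 125, 124 and 128 CPM in L1high to 85.4, 84.2 and 95.3 CPM in L1low, a log2 difference of -0.49 ± 0.08 with an adjusted p of 0.0029.

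C2CD4D-AS1 was the only called antisense gene whose model does not overlap its sense gene. Its exons still lie at least in part under another gene of the opposite strand. None of the 19 antisense genes whose exons lie under no such gene was called by edgeR, against 4.10% of all 610. Their median SE was 0.30 against 0.22, and 19 genes are too few to tell these shares apart. C2CD4D-AS1 stood at 9.05, 9.83 and 9.56 CPM in L1high and at 4.18, 5.01 and 5.65 CPM in L1low. Its log2 difference was -0.92 ± 0.17 with an adjusted p of 0.0050. C2CD4D stood at 1.93, 1.56 and 3.05 CPM and at 1.596, 1.28 and 1.807 CPM, and its groups overlapped (log2 difference -0.15, adjusted p = 0.80). The GENCODE model of C2CD4D-AS1 (chr1:151841877-151850385, plus strand) starts 1320 bases from that of C2CD4D, whereas the RefSeq window before its start ends at position 151838276, inside C2CD4D. Which of these starts the cells use was not measured.

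Whether antisense follows sense was then asked over all 566 pairs. The log2 differences had the same sign in 388 pairs (68.6%), and across pairs Pearson's r was 0.55 and the rank correlation of Spearman 0.48, values that describe these libraries and rest on genes that can share reads. Of the 70 pairs with a called sense gene (12.4%, against 7.57% of all genes) the antisense gene moved the same way in 66 (94.3%), in 42 of 45 with a higher and 24 of 25 with a lower sense gene. This held in 62 of 63 pairs (98.4%) with overlapping exons and in 4 of 7 (57.1%) with no shared exon bases. The background pairs given below were not limited to those with a called gene. Where the sense gene was called higher, the median log2 difference was 0.47 for sense and 0.43 for antisense genes. Where it was called lower, the medians were -0.45 and -0.34. The antisense to sense ratio did not overlap between the groups in 83 pairs (14.7%), a share below those of the background pairs given next, so a ratio that does not overlap in a single pair is only a description.

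As a background, 1126 pairs of protein-coding genes on opposite strands whose starts lie within 1 kb of each other had the same sign in 675 cases (59.9%), with r = 0.25 and a ratio that did not overlap between the groups in 27.4%. The 172 pairs of a divergent transcript (suffix -DT, a lncRNA that starts beside its namesake and runs away from it) with its namesake had the same sign in 92 cases (53.5%), with r = 0.16 and a ratio that did not overlap in 18.0%.

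The pairs were then divided by how the genes are laid out, as a description with no test between classes. In 497 pairs exons overlap, and in these 347 pairs had the same sign (69.8%) with r = 0.59. In 42 pairs the gene bodies overlap but the exons do not, and 21 of them (50.0%) had the same sign with r = 0.24. In 26 pairs the bodies are apart, with the same sign in 19 (73.1%) and r = 0.09. The classes also differ in read depth. The median antisense level was 2.24 log2 CPM with overlapping exons, 1.21 with only bodies overlapping and 1.34 with bodies apart. The median antisense SE was 0.20, 0.26 and 0.28 in the same order. The part of read depth in the shares and r of the classes was not tested. The 18 pairs in which both genes were called all had overlapping exons. For HILPDA-AS1 the current models do not place the pair on opposite strands, and it is in none of these classes.

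**Figure D4:**
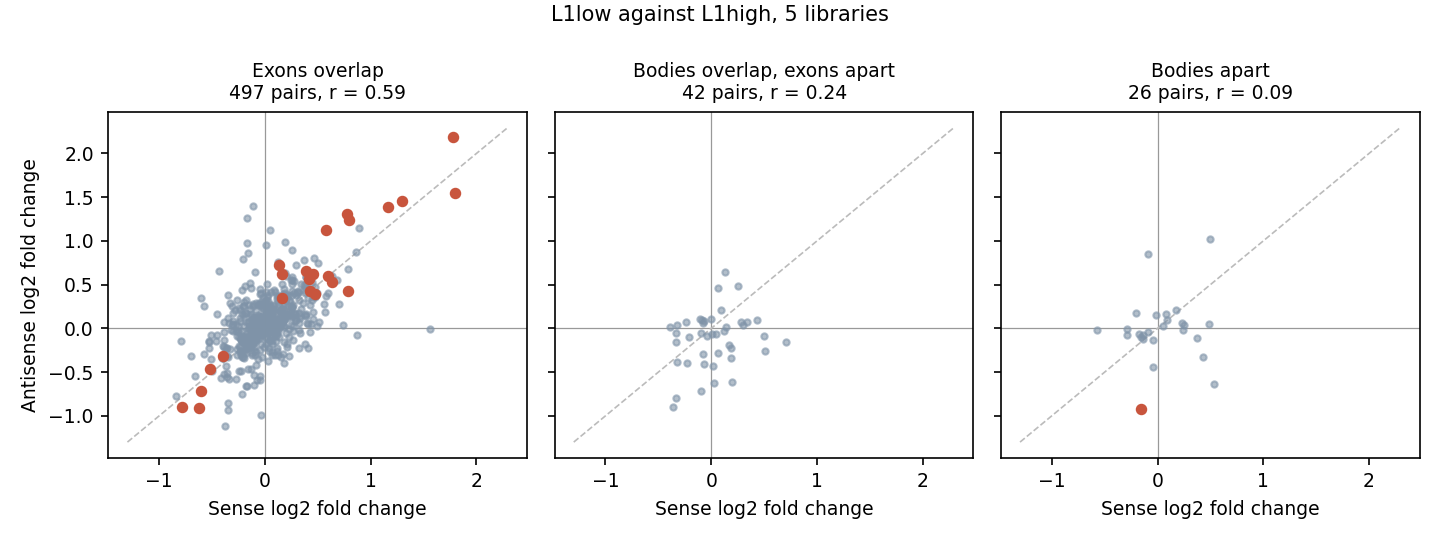
Log2 difference (L1low minus L1high) of the antisense gene against that of its sense gene, in 1 panel for each layout of the pair. Each point is 1 pair, and pairs with a called antisense gene are marked, whether or not the sense gene was called. In the 497 pairs with overlapping exons the points follow the diagonal (r = 0.59), and in the 42 pairs with bodies overlapping but exons apart and the 26 pairs apart they scatter around 0 (r = 0.24 and r = 0.09).

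Among overlapping pairs, those in which the antisense gene lies within the sense gene (150 pairs) had the same sign in 73.3% with r = 0.70, and those that meet tail to tail (125 pairs) in 77.6% with r = 0.64. Pairs that overlap head to head, the layout of CALML3, numbered 230 and had the same sign in 60.9% with r = 0.49. In 34 pairs the antisense gene reaches around the sense gene, with the same sign in 61.8% and r = 0.31. The pairs were also divided by the share of the antisense exon bases that lie on sense exons. With no shared exon bases (68 pairs) 58.8% had the same sign and r was 0.18. With above 0 to 10% shared (172 pairs) these values were 64.0% and 0.55, with above 10 to 30% (188 pairs) 71.8% and 0.55, with above 30 to 60% (88 pairs) 71.6% and 0.59, and with above 60% (49 pairs) 79.6% and 0.85. Antisense genes with no shared exon bases also had fewer reads, with a median of 1.31 log2 CPM. The medians of the other classes were 2.11 to 2.39, and the part of read depth was not tested.

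The level of the antisense gene relative to its sense gene was higher where more bases are shared, except between the first and second class. The median log2 ratio of CPM per kilobase, antisense over sense, was -2.28 with no shared exon bases, -2.76 with above 0 to 10%, -1.26 with above 10 to 30%, -0.66 with above 30 to 60% and 0.56 with above 60%. Spread evenly, sense reads on the shared bases would reach the whole antisense count in 99 of the 497 pairs with overlapping exons, and the median was 42.2% of the antisense count. In 19 pairs the antisense exons lie under no gene of the opposite strand at all, and there 13 had the same sign (68.4%), r was 0.07 and no antisense gene was called by edgeR. Beside the 4.10% called among all antisense genes, 19 genes are too few to tell a difference.

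**Figure D5:**
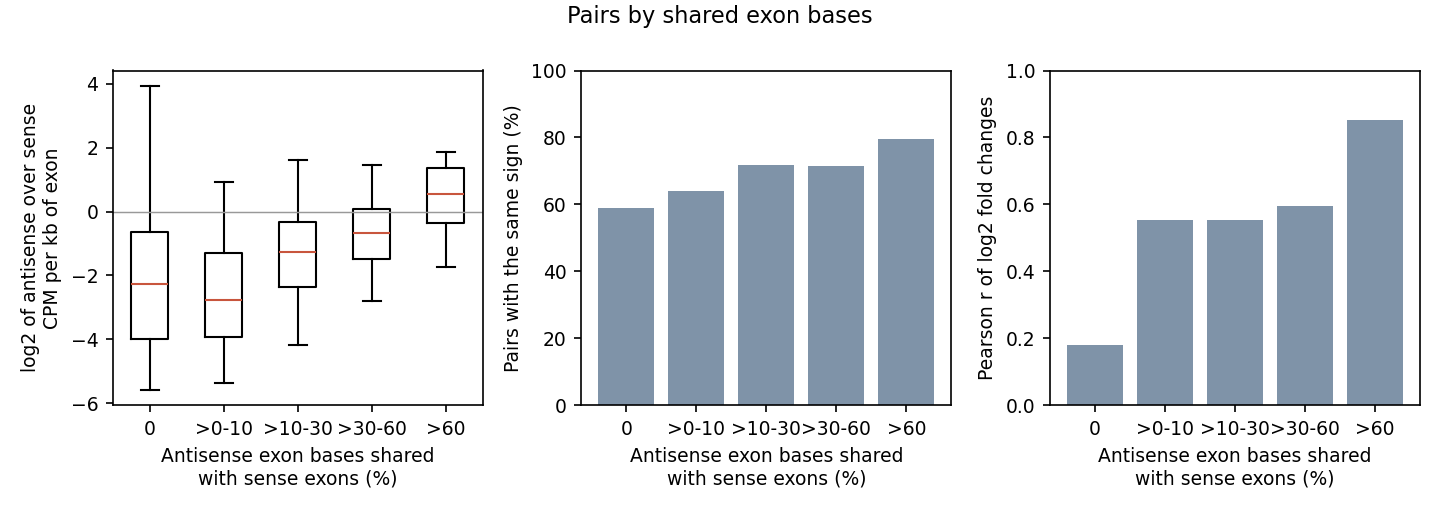
Log2 ratio of CPM per kilobase of exon, antisense over sense, by the percentage of antisense exon bases that lie on sense exons, with boxes for the median and quartiles and whiskers for the 5th to 95th percentile of pairs. The median is -2.28 in the 68 pairs with no shared bases and 0.56 in the 49 pairs with above 60% shared.

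Per kilobase, the highest antisense genes were TUBA1B-AS1 at 265 CPM, PHLDA1-AS1 at 168, RPL30-AS1 at 161, SVIL-AS1 at 149 and MIF-AS1 at 109, while the median of the 610 was 1.78. Their sense genes include the tubulin gene TUBA1B, the ribosomal protein gene RPL30 and the cytokine gene MIF, and the TUBA1B exons averaged 397 CPM per kilobase and the MIF exons 219.9 CPM. MIF-AS1 counted 3464, 3122 and 3063 reads in L1high and 2329, 2923 and 3057 in L1low, where MIF counted 3460, 3117 and 3052 reads and 2323, 2918 and 3048. The counts of the 2 genes were thus nearly the same in every library. SVIL-AS1 has a model of only 122 exon bases, is apart from SVIL and did not follow it, with a log2 difference of 0.05 beside 0.49 for SVIL. None of these 5 genes but PHLDA1-AS1 passed the test.

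Being in the table at all also went with the opposite strand. Of 1643 -AS1 genes in the current models 610 were in the table (37.1%). This share was 9.96% where no exon base lies under an exon of the opposite strand, 42.3% with above 0 to 10% of bases there, 51.6% with above 10 to 30%, 58.2% with above 30 to 60% and 57.1% with above 60%. Among lncRNA models of at least 300 exon bases in general, 201 of 373 that lie wholly under opposite-strand exons were in the table (53.9%), and 407 of 11055 that share no base with another exon on either strand (3.68%). Transcription on both strands and reads of the sense gene counted for the antisense gene cannot be told apart in these counts.

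Among the 70 pairs with a called sense gene, the 4 in which the antisense gene had the opposite sign were DLG5-AS1, SH3RF3-AS1, SATB1-AS1 and TMEM9B-AS1. DLG5-AS1 starts 617 bases from DLG5, a scaffold gene of cell polarity, and stood at 1.23, 0.925 and 1.22 CPM in L1high and at 0.991, 0.501 and 0.565 CPM in L1low. DLG5 stood at 73.5, 60.5 and 77.3 CPM and at 95.7, 94.9 and 97.9 CPM. The log2 differences of -0.63 and 0.53 were 1.17 apart (-1.17 ± 0.42, antisense minus sense, SE), the widest gap of any pair with a called gene, but DLG5-AS1 itself overlapped between groups and did not pass the test (adjusted p = 0.37). SH3RF3-AS1, 275 bases from SH3RF3, had -0.33 beside 0.43 (log2). SATB1-AS1 had -0.09 beside 0.50, and TMEM9B-AS1, the exception among these 4 with overlapping exons, 0.17 beside -0.45 (log2). FGD5-AS1, singled out after its values were seen, was deeply counted and level between groups, at 1254, 1267 and 886 reads in L1high and 1134, 1096 and 978 in L1low, while FGD5 counted 10, 6 and 6 reads and 14, 19 and 28 (log2 difference 1.56, adjusted p = 0.065).

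Of 14 antisense genes listed for their ties to matrix, transforming growth factor β, hypoxia and lineage genes, 5 were in the table and only THBS1-AS1 passed the test. HIF1A-AS1 had a log2 difference of 0.51 (adjusted p = 0.099) beside 0.17 for HIF1A, and ranged from 0.10 to 0.53 over the alternatives, with 0.33 for all 6 libraries. LAMA5-AS1 had 0.53 (adjusted p = 0.28) beside 0.44 for LAMA5, a laminin chain gene that was called, and ranged from 0.05 to 0.70, with 0.33 for all 6 libraries. TGFB2-AS1 had 0.27 and ZEB1-AS1 -0.31, with adjusted p of 0.40 and 0.29.

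The libraries held 16334610 to 21064685 counts on genes, of which the 610 antisense genes took 0.796 to 0.845%. L1CAM, the sorting marker, stood at 69.8 to 89.5 CPM in L1high and at 17.7 to 23.7 CPM in L1low, as the gates label them. All 5 pancreatic epithelial and all 5 squamous or basal markers were in the table, with summed levels of 2696 to 3069 CPM in L1high and 3045 to 3233 CPM in L1low for the former and of 5373 to 5448 and 5564 to 6100.5 CPM for the latter. Within these lists KRT19 (log2 difference 0.69), TP63 (1.09) and KRT14 (0.50) were called higher and EPCAM (-0.37) and KRT6A (-0.58) lower in L1low. Of the fibroblast markers 1 of 5 was in the table, LUM, at 78.1 to 89.8 CPM in L1high and 129 to 149.99 CPM in L1low, which was called higher (adjusted p = 0.00031), and of leukocyte and endothelial markers 1 of 4 and 1 of 3, at 8.42 to 11.3 CPM and at 11.3 to 14.7 CPM. The part of these marker levels in the antisense differences was not tested.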

How the data were processed

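RNA-seq was performed on 6 libraries of L3.6pl cells, 3 sorted for high and 3 for low L1CAM. The authors trimmed the paired-end reads of stranded poly(A) libraries, aligned them to GRCh38 with BWA, counted them per gene with featureCounts on the annotation of Ensembl release 94, and deposited raw counts per gene. The submitters' processing notes also name DESeq2. The strand and multi-overlap options of the counting are not given in the sources used here. BWA does not split reads at introns, which can lower the counts of genes with short exons.

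Counts were analysed with edgeR 4.0.16 in R 4.3.3 (TMM factors, filterByExpr, quasi-likelihood test, Benjamini-Hochberg adjustment over all 19469 genes, calls at an adjusted p under 0.05). CPM values are counts scaled by the library total times its TMM factor (0.984 to 1.01). Depth was 16334610 to 21064685 counts per library. Intervals are SEs over libraries, and the SE of a difference between genes takes them as independent. Genes for which DESeq2 gave no adjusted p were left out of its lost calls. Of the identifiers 19344 had a symbol. Gene models were taken from GENCODE 44 on GRCh38, not from the authors' release 94, so exon bases and layouts are approximate. Expected shared reads are the sense count times the share of sense exon bases that overlap the antisense exons. The fit was tested on simulated data. No 2 libraries of the same group were closer than 3.66 chi-square per degree of freedom, so each was kept as a library of its own. Libraries of different groups were not compared in this way.

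The antisense genes and all gene lists were chosen with earlier results of these data known. Some genes are not reported here. The others were named when called, when listed, when among the 5 highest per kilobase, or when among the 3 pairs whose differences lay furthest apart with at least 1 gene called. BTG3-AS1, HILPDA-AS1, FGD5-AS1 and the exceptions among pairs were named after their values were seen. The alternatives were all 6 libraries, each library left out, a replicate block, DESeq2 1.42.0, edgeR's exact test, other scalings and other filters.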

Additional observations from a re-analysis of the deposited data

How the results depend on the processing

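The alternatives gave 905 values for 56 results. Direction and call stayed as reported in 794 of these, 82 lost the call with the direction unchanged, 9 gained one, 20 moved in size and none turned. CALML3-AS1 kept its call throughout, with log2 differences of 1.93 to 2.18 and adjusted p of 6.7e-24 to 0.00043, and was among 7 of the 25 called genes that did so, with THBS1-AS1, IGFL2-AS1, C2CD4D-AS1, PYCARD-AS1 and PXN-AS1. Each library was left out of all 6, so leaving out L1high replicate 3 gives the 5-library comparison. The number of antisense genes called ranged from 6 to 18 higher and from 4 to 13 lower in L1low, the genes called over the whole table from 627 to 1473 and the pairs with both genes called from 7 to 18. Without L1high replicate 1 these were 6, 4, 674 and 7, without L1low replicate 2 they were 7, 4, 627 and 8, without L1high replicate 2 there were 13 lower, and without L1low replicate 3 there were 11 higher. The exact test of edgeR called 29 antisense genes higher and 10 lower, with 2071 genes called over the whole table (10.6%). The cause was not tested.

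Same-numbered libraries correlated in their deviations by r = 0.074, 0.091 and 0.21, so the numbers did not pair the samples by the limit of 0.1 set for every pair, although each library correlated best with its own number. With the replicate number as a block, 24 antisense genes were higher and 14 lower with 5 libraries, where 1799 genes were called over the whole table (9.24%). With all 6, 25 were higher and 16 lower, 28 pairs had both genes called and 2363 genes were called (12.1%).

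Of the 68 pairs whose exons do not overlap, 40 moved the same way, 0 had both genes called by edgeR, and r was 0.18. Of the 342 pairs with a mean of at least 50 counts in both genes, 244 moved the same way, with r = 0.68. Few reads limit the antisense genes, and 236 of the 610 had a mean under 50 counts per library.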

Other observations

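Other named classes of non-coding genes differed little. Of 44 genes with the suffix -AS or -AS2 and higher, 2 were called higher and 1 lower in L1low (6.82%), with a median log2 difference of 0.14. Of 173 divergent transcripts (-DT) 2 were called higher and 1 lower (1.73%), with a median of 0.03. None of 4 intronic transcripts (-IT) was called by edgeR, and 2 of 13 genes ending in OT1, opposite or overlapping transcripts such as KCNQ1OT1, were called higher (15.4%). Among all genes tested 7.57% were called.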
